A study of Mus musculus with 7 samples.

Results

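The genes described here encode antioxidant enzymes, the enzymes of glutathione and thioredoxin, metallothioneins, and the sensors and regulators around them. They were chosen by name: a list of 47 mouse symbols was matched through Ensembl identifiers to the 22027 genes of the deposited tables. All 47 were listed, each by 1 identifier, and all 47 passed the filter on low counts, with a lowest count of 47 reads in any library. RNA was from the left ventricle of mice labelled with strain C57BL/6J and an age of 12 months. Mice labelled G3 PGC1aOE (n = 3) are described as G3 mice that overexpress PGC1alpha, and the mice they were compared with, labelled G3 (n = 4), as telomerase-deficient. Telomerase deficiency is therefore shared by both groups, and a telomerase-proficient group was not analysed here. PGC1alpha is a transcriptional coactivator that raises the expression of mitochondrial genes. The promoter and cell type that drive the added PGC1alpha are given in none of the sources used here. Neither litters nor shared animals are described, and a p-value here reflects only how these samples vary. Codes of the G3 PGC1aOE samples all start with PC. Among the G3 samples, those of 1 and 2 start with C, that of 4 with P and that of 3 with neither, and the labels do not explain these letters. A digit after the letter G in the code is 2 for G3 PGC1aOE 1, G3 1 and G3 3 and 3 for the other 4 samples, although all 7 are labelled G3.

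Superoxide, formed largely by the respiratory chain in the mitochondria-rich heart muscle cell, is converted to hydrogen peroxide by superoxide dismutases. Catalase, the glutathione peroxidases and the peroxiredoxins then remove the peroxide. Glutathione and thioredoxin, recharged with electrons from NADPH by their reductases, restore most of the peroxidases and peroxiredoxins. The transcription factor Nrf2, encoded by Nfe2l2 and held in check by the sensor protein Keap1, drives many of the genes under oxidative or electrophilic stress. In cultured mouse cells PGC1alpha is known to be needed for the full induction of several antioxidant enzymes.

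Some facts of the libraries bear on every result. Total counts ran from 11576569 to 16056740 in G3 PGC1aOE and from 10106705 to 14119403 in G3. Values per library are given as CPM, counts relative to the TMM-scaled library total, and levels of different genes are compared only as FPKM, which also divides by gene length. Log2 fold changes are given ± SE. Ppargc1a, which encodes PGC1alpha, stood at 103, 43.9 and 58.1 CPM in G3 PGC1aOE 1 to 3, against 94.7, 56.8, 118 and 86.7 CPM in G3 1 to 4. It did not rise in the libraries labelled as overexpressing it (log2 fold change −0.38 ± 0.34, edgeR adjusted p = 0.847), so each direction below rests on the label. Whether these reads include the transgene's message was not tested. Tert, the catalytic subunit gene of telomerase, had 1 count in 1 library and 0 in the other 6, too few to check that label, and Terc was not analysed here. Cardiomyocyte genes were abundant in all libraries, with Myh6, the main adult myosin heavy chain of the mouse heart, between 7817 and 13590 CPM in G3 PGC1aOE and between 8033 and 21670 CPM in G3. Mitochondrially encoded genes took 27.7, 32.4 and 42.4% of counts in G3 PGC1aOE 1 to 3, against 24.7, 26, 31.4 and 34.5% in G3 1 to 4. Libraries also differed in how levels depended on gene length. The rank correlation across the 12674 tested genes between length and a gene's deviation from its mean was 0.38, −0.36 and −0.34 in G3 PGC1aOE 1 to 3, against 0.21, 0.084, 0.25 and −0.0069 in G3 1 to 4, as a description across genes, which are not replicates. The 47 genes are short, with a median length of 1051 bp against 1955.5 bp for all tested genes.

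None of the 47 genes passed the test between G3 PGC1aOE and G3, and no gene of the 12674 tested did (edgeR quasi-likelihood test with Benjamini-Hochberg adjustment, called 0%, and 548 genes at an unadjusted p under 0.05). DESeq2 called 1 gene of the whole table, Col3a1, which is no member. Log2 fold changes of the 47 genes, G3 PGC1aOE over G3, lay between −0.51 for Txnrd1 and 0.67 for Prdx4, with a median of 0.11 against 0.0076 over all tested genes. Without G3 PGC1aOE 2 the median of the 47 genes was 0.0085, against −0.0020 over all tested genes. On log2 FPKM with a pseudocount of 1 it was −0.0088, against −0.081. Of the 47 genes 29 had a positive and 18 a negative value, and the positive share of 61.7% stood beside 50.9% of all tested genes, with 49.1% negative. An unadjusted p under 0.05 was reached by 1 member, Txnrd1, or 2.13% of members beside 4.32% of all tested genes (3.05% higher and 1.27% lower). The libraries of the groups did not overlap for 3 members, Txnrd1 and Keap1, which were lower, and Glrx, which was higher. They make 6.38% of members beside 4.58% of all tested genes (2.19% higher and 2.39% lower). These counts are near the background, and nothing is read from them about the set. For 29 of the 47 genes the 95% interval of the log2 fold change lay wholly between −1 and 1, so a change of 2-fold or more in either direction was outside it. For the other 18 the interval passed one of these bounds.

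**Figure D1:**
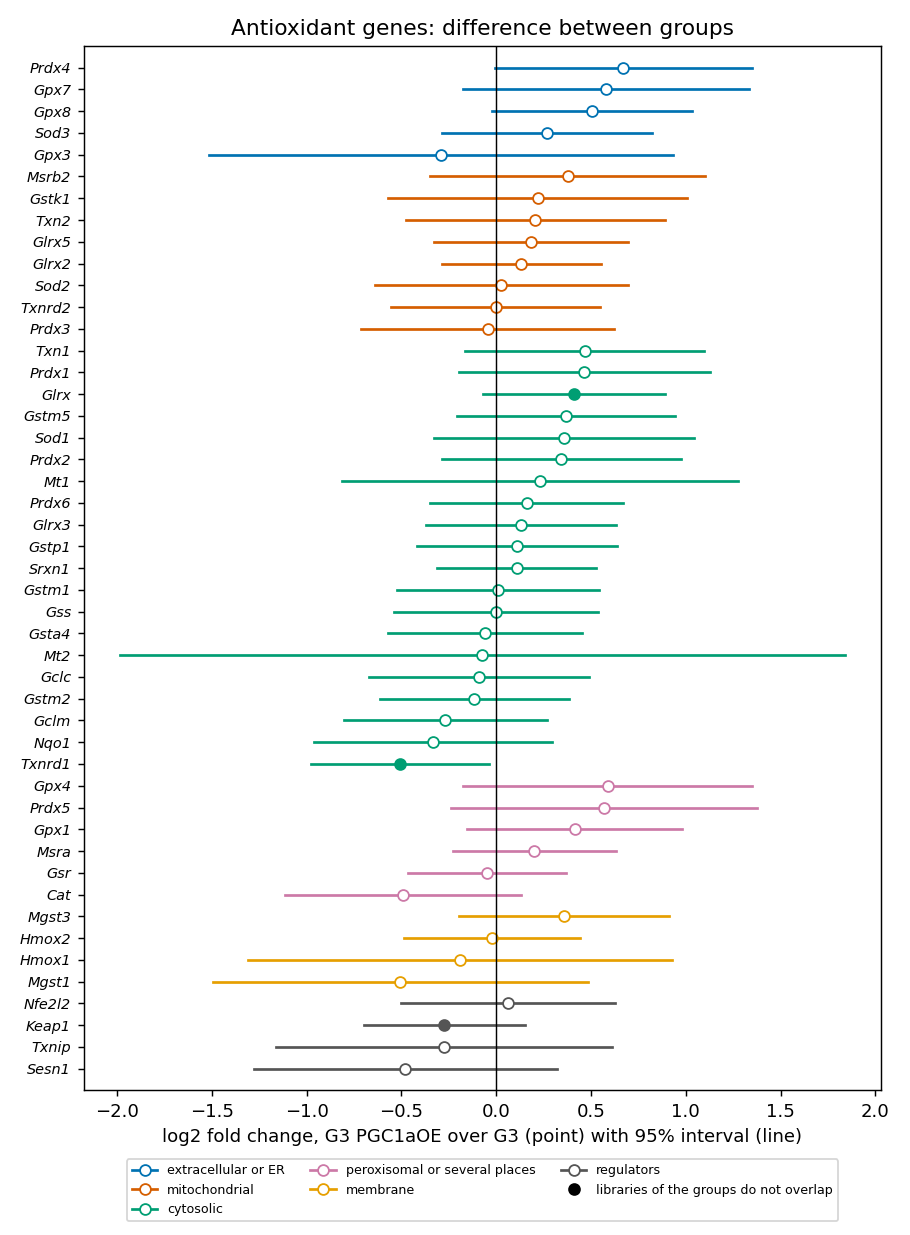
Log2 fold change of each of the 47 genes, G3 PGC1aOE over G3 (points, x axis), with its 95% interval from the edgeR fit (lines), 1 gene a row and coloured by the place of its protein. Filled points mark Txnrd1, Keap1 and Glrx, whose libraries did not overlap between groups. The interval of Txnrd1 ends at −0.039, and those of the other 46 genes cross 0.

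Among the members the phospholipid hydroperoxidase Gpx4 was the most abundant message per length, at a mean of 1025 FPKM over the 7 libraries. It was followed by the metallothionein Mt1 at 634, the cytosolic superoxide dismutase Sod1 at 484, the thioredoxin inhibitor Txnip at 443, the peroxiredoxin Prdx5 at 391 and the secreted peroxidase Gpx3 at 378 FPKM. In all, 16 members exceeded 100 FPKM, 29 lay between 10 and 100 FPKM, and 2 lay under 10 FPKM. The least abundant was Gclc, the catalytic subunit of the rate-limiting enzyme of glutathione synthesis, at 4.26 FPKM, and the other member under 10 FPKM was Gpx7 at 9.09 FPKM. Across the 7 libraries 23 members varied less than 2-fold between the highest and the lowest CPM, and 8 varied more than 3-fold. The steadiest was the glutathione reductase gene Gsr, between 18.6 and 23.1 CPM.

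Superoxide dismutases come in 3 forms, the cytosolic Sod1, the mitochondrial Sod2 and the extracellular Sod3. Sod1 (ENSMUSG00000022982) measured 221, 535 and 329 CPM in G3 PGC1aOE 1 to 3, against 249, 308, 262 and 310.3 CPM in G3 1 to 4. The highest and the lowest of the 7 values were both in G3 PGC1aOE, so the G3 libraries lay inside the range of the other group, and the log2 fold change was 0.36 ± 0.31 (95% interval −0.33 to 1.04, edgeR adjusted p = 0.847). For Sod2 (ENSMUSG00000006818) the values were 336, 493 and 498 CPM in G3 PGC1aOE 1 to 3, against 305, 353, 582 and 497 CPM in G3 1 to 4. G3 3 was highest and G3 1 lowest, and the log2 fold change of 0.027 ± 0.30 did not pass (95% interval −0.64 to 0.69, adjusted p = 0.985). Sod3 (ENSMUSG00000072941) stood at 49.3, 49.4 and 38.9 CPM in G3 PGC1aOE 1 to 3, against 48.8, 45.7, 30.3 and 27.4 CPM in G3 1 to 4. Its lowest values were in G3 3 and G3 4, G3 1 and G3 2 lay between the G3 PGC1aOE extremes, and the log2 fold change was 0.27 ± 0.25 (adjusted p = 0.847). Of the summed FPKM of the dismutases, Sod1 made up 77.2, 85.3 and 78.4% in G3 PGC1aOE 1 to 3, against 80.6, 82, 71.7 and 77.8% in G3 1 to 4. The mitochondrial form supplied 19.9, 13.3 and 20% in G3 PGC1aOE 1 to 3, against 16.7, 15.9, 26.8 and 21.1% in G3 1 to 4, and Sod3 at most 2.98% in any library.

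**Figure D2:**
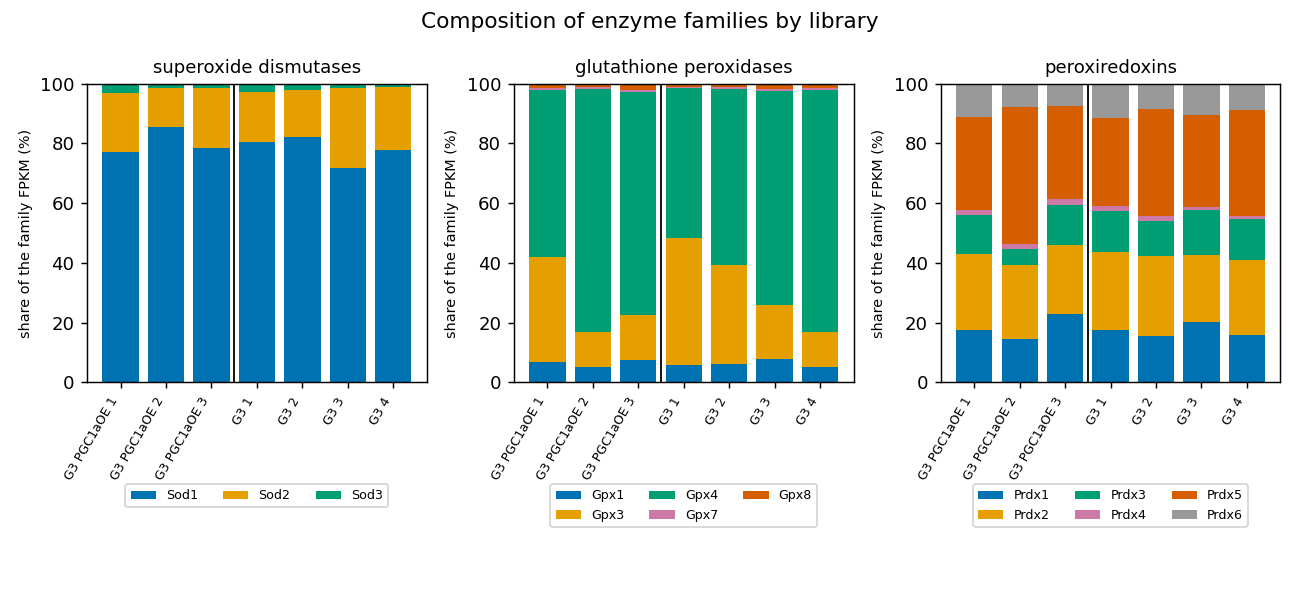
Share of each gene in the summed FPKM of its family (y axis, %), in the 3 G3 PGC1aOE libraries left of the line and the 4 G3 libraries right of it, for superoxide dismutases, glutathione peroxidases and peroxiredoxins. Sod1 took the largest share of the dismutases and Gpx4 the largest of the peroxidases in each library, while the share of Gpx3 ran from 11.6% to 42.6%.

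Catalase, the peroxisomal enzyme that breaks down hydrogen peroxide and is encoded by Cat (ENSMUSG00000027187), measured 163, 89 and 112 CPM in G3 PGC1aOE 1 to 3, against 190.4, 122, 193 and 177 CPM in G3 1 to 4. The lowest of the 7 libraries were G3 PGC1aOE 2 and 3, and G3 PGC1aOE 1 lay among the G3 values. The group means were 121 ± 37.7 CPM (SD, n = 3) in G3 PGC1aOE and 171 ± 33 CPM (SD, n = 4) in G3, and the log2 fold change of −0.49 ± 0.28 did not pass (95% interval −1.11 to 0.13, edgeR adjusted p = 0.847). The difference in log2 CPM was −0.021 in the libraries with a lower number in their sample code, under 80, and −0.82 in the others. The labels do not explain that number. The lower set of codes holds G3 PGC1aOE 1 with G3 1 to 3 and the upper set G3 PGC1aOE 2 and 3 with G3 4.

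The glutathione peroxidases reduce peroxides, most of them with glutathione. Gpx1, Gpx3 and Gpx4 carry selenocysteine at the active site, while Gpx7 and Gpx8, which lie in the endoplasmic reticulum, carry cysteine. Gpx4 (ENSMUSG00000075706), which protects membranes from lipid peroxidation, measured 468, 1290 and 871 CPM in G3 PGC1aOE 1 to 3, against 585, 639, 450.5 and 656 CPM in G3 1 to 4. Every G3 library lay below G3 PGC1aOE 2 and 3, and G3 PGC1aOE 1 was near the lowest. The log2 fold change was 0.59 ± 0.34 (95% interval −0.17 to 1.35, edgeR adjusted p = 0.847). With each library's trend on gene length removed, an alternative chosen after seeing the data, it was 0.16. Gpx1, the broadly expressed intracellular form, had means of 94.3 ± 20.5 CPM (SD, n = 3) in G3 PGC1aOE and 70.8 ± 16.4 CPM (SD, n = 4) in G3 and a log2 fold change of 0.41 ± 0.26, which did not pass (adjusted p = 0.847).

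Gpx3 (ENSMUSG00000018339), the secreted peroxidase of plasma, varied most among the peroxidases. It measured 449, 281 and 272 CPM in G3 PGC1aOE 1 to 3, against 763, 554, 174 and 144 CPM in G3 1 to 4. The 4 G3 libraries held both extremes: G3 1 and G3 2 lay above all 3 G3 PGC1aOE libraries, and G3 3 and G3 4 below them. The means were 334 ± 99.7 CPM (SD, n = 3) in G3 PGC1aOE and 408 ± 301 CPM (SD, n = 4) in G3, with a log2 fold change of −0.29 ± 0.55 and a wide 95% interval from −1.51 to 0.93 (adjusted p = 0.917). A like split, with G3 1 and G3 2 high and G3 3 and G3 4 low, recurred in Mt2 and Hmox1, which are given below. It was noticed after the values were seen and has no test. The direction of Gpx3 turned to 0.37 when the code number was adjusted for.

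The peroxidases of the endoplasmic reticulum lay higher on average in G3 PGC1aOE, and none of them passed. Gpx8 (ENSMUSG00000021760) measured 18.3, 23.1 and 34.8 CPM in G3 PGC1aOE 1 to 3, against 18.7, 18.6, 18 and 16.2 CPM in G3 1 to 4. The 4 G3 values lay close together, G3 PGC1aOE 2 and 3 exceeded them, and G3 PGC1aOE 1 fell within them, for a log2 fold change of 0.50 ± 0.24 (edgeR unadjusted p = 0.059, adjusted p = 0.847). Prdx4 (ENSMUSG00000025289), the peroxiredoxin of the endoplasmic reticulum and the secretory pathway, stood at 11.3, 27.4 and 27.5 CPM in G3 PGC1aOE 1 to 3, against 13.4, 16.5, 11.1 and 14.4 CPM in G3 1 to 4. G3 PGC1aOE 2 and 3 were again the highest and G3 PGC1aOE 1 among the lowest, and the log2 fold change was 0.67 ± 0.31 (unadjusted p = 0.0519, adjusted p = 0.847). Gpx7 (ENSMUSG00000028597) read 5.12, 13.6 and 8.98 CPM in G3 PGC1aOE 1 to 3, against 5.65, 7.61, 4.22 and 7.22 CPM in G3 1 to 4. Its groups overlapped in the same way, with a log2 fold change of 0.58 ± 0.34 (adjusted p = 0.847).

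Over the 5 extracellular and endoplasmic reticulum members, 4 had a positive value and the median log2 fold change was 0.50, at 0.21 without G3 PGC1aOE 2. The mean of the list was 4.91, 5.38 and 5.30 log2 CPM in G3 PGC1aOE 1 to 3, against 5.14, 5.17, 4.44 and 4.55 log2 CPM in G3 1 to 4. Groups overlapped, and the group means of the list were −0.0068 apart in the lower set of codes, 0.79 in the upper set and 0.37 over all 7 libraries. Fibroblasts are rich in secretory proteins. Of 12 fibroblast markers 10 had a positive log2 fold change, with a median of 0.85. Their mean was 6.45, 6.79 and 6.89 log2 CPM in G3 PGC1aOE 1 to 3, against 6.19, 6.23, 5.77 and 5.76 log2 CPM in G3 1 to 4, so the groups did not overlap. Of the 12, 6 were higher at an unadjusted p under 0.05 and 5 did not overlap between groups, beside 3.05% and 2.19% of all tested genes. None passed in edgeR, while Col3a1, which DESeq2 called, is 1 of the 12. Their summed level was 2062 to 3372 CPM in G3 PGC1aOE and 1451 to 2429 CPM in G3, and none was at 0 in all libraries. The mean of 6 Schwann cell markers did not overlap between groups either, with a median log2 fold change of 1.17. That of 6 adipocyte markers overlapped, with a median of 1.45. Both means were low. For Schwann cell markers the mean was 1.255 to 1.758 log2 CPM in G3 PGC1aOE and −0.0092 to 1.03 log2 CPM in G3. For adipocyte markers it was 1.51 to 3.75 log2 CPM in G3 PGC1aOE and 0.20 to 2.945 log2 CPM in G3. Smooth muscle and pericyte markers averaged 4.80, 6.49 and 6.07 log2 CPM in G3 PGC1aOE 1 to 3. In G3 1 to 4 they averaged 4.96, 5.97, 5.30 and 5.54 log2 CPM. Cardiomyocyte and erythroid markers each had a median of −0.12. The part of any of these cell types in the values of Gpx7, Gpx8 and Prdx4 was not tested. In bulk tissue, fewer cells of a type and less RNA per cell cannot be told apart.

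**Figure D3:**
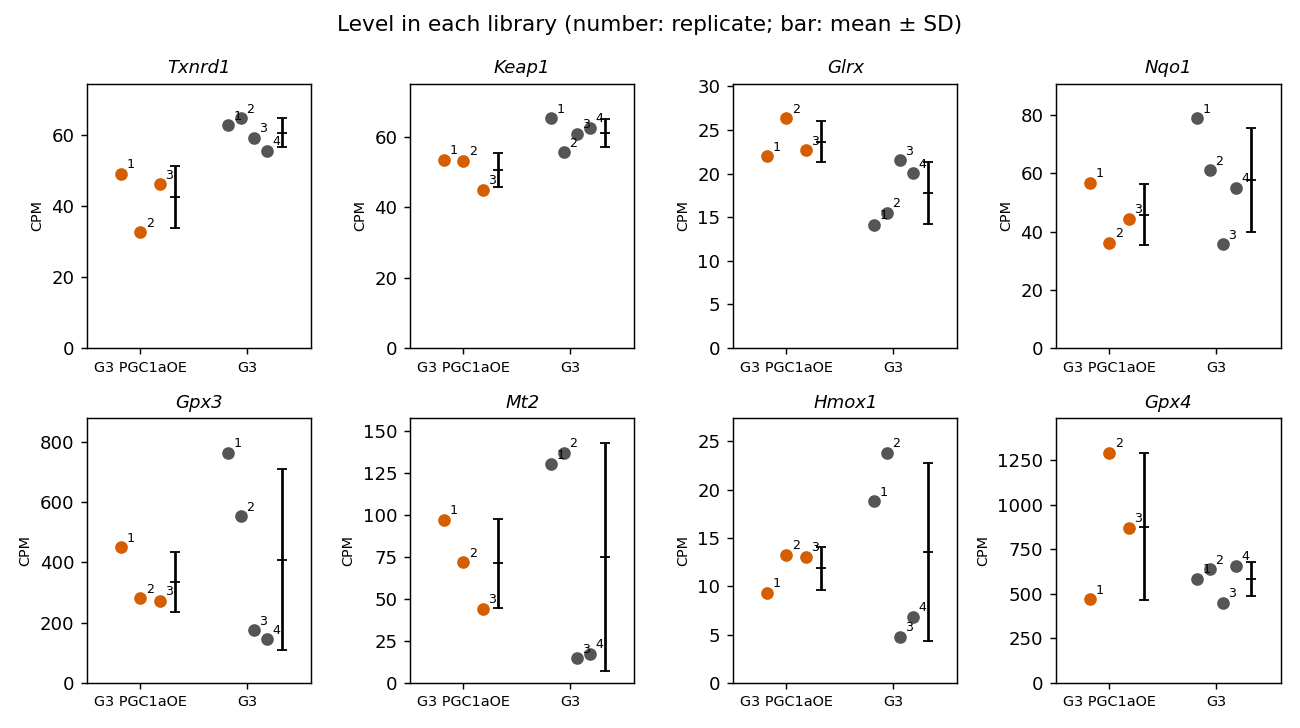
CPM of 8 genes in each library (y axis, from 0), G3 PGC1aOE left and G3 right, with the replicate number beside each point and the mean ± SD as a bar. Txnrd1 and Keap1 lie lower and Glrx higher in all G3 PGC1aOE libraries, while Gpx3, Mt2 and Hmox1 show G3 1 and 2 above and G3 3 and 4 below the G3 PGC1aOE libraries.

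Peroxiredoxins reduce peroxides with a reactive cysteine that thioredoxin restores in most of them. Prdx5, present in mitochondria, peroxisomes and cytosol, was the most abundant at 391 FPKM, and Prdx2, a cytosolic form, came next at 274 FPKM. Prdx5 (ENSMUSG00000024953) had means of 534 ± 285 CPM (SD, n = 3) in G3 PGC1aOE and 359.7 ± 79.1 CPM (SD, n = 4) in G3, from 278 CPM in G3 PGC1aOE 1 to 842 CPM in G3 PGC1aOE 2, so its spread within that group exceeded the difference between groups (log2 fold change 0.57 ± 0.37, edgeR adjusted p = 0.847). Prdx1 (ENSMUSG00000028691), a cytosolic form and Nrf2 target, measured 136, 232 and 308 CPM in G3 PGC1aOE 1 to 3, against 142, 136, 194 and 180.3 CPM in G3 1 to 4. Both G3 PGC1aOE 2 and 3 exceeded every G3 library, and G3 PGC1aOE 1 was the lowest together with G3 2, with a log2 fold change of 0.46 ± 0.30 (adjusted p = 0.847). The mitochondrial Prdx3 (ENSMUSG00000024997) measured 162, 139 and 286 CPM in G3 PGC1aOE 1 to 3, against 177, 162, 224 and 245 CPM in G3 1 to 4. Here G3 PGC1aOE 3 was highest and G3 PGC1aOE 2 lowest, and the log2 fold change was −0.045 ± 0.30 (adjusted p = 0.975). Prdx2 and Prdx6, a form that also reduces phospholipid peroxides, had log2 fold changes of 0.34 and 0.16 and did not pass.

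Txnrd1, the cytosolic selenoprotein reductase that recharges thioredoxin and a target of Nrf2, had the smallest p of the 47 genes. Txnrd1 (ENSMUSG00000020250) measured 49, 32.6 and 46 CPM in G3 PGC1aOE 1 to 3, against 62.8, 64.7, 59.2 and 55.5 CPM in G3 1 to 4. All 3 G3 PGC1aOE libraries were below all 4 G3 libraries, with means of 42.5 ± 8.72 CPM (SD, n = 3) in G3 PGC1aOE and 60.5 ± 4.05 CPM (SD, n = 4) in G3. The log2 fold change was −0.51 ± 0.21 (95% interval −0.98 to −0.039), with an unadjusted p of 0.0363 and an adjusted p of 0.847 in edgeR, so it did not pass. Separation of the groups fixes the sign within the sets of code numbers, where the difference in log2 CPM was −0.34 in the lower set and −0.52 in the upper set. The negative value held in each of the 21 alternatives run, between −0.64 and −0.35. Separation also largely fixes the sign in those that leave libraries out.

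The substrate of that reductase, the cytosolic thioredoxin Txn1 (ENSMUSG00000028367), measured 55.4, 96.3 and 122 CPM in G3 PGC1aOE 1 to 3, against 54.4, 70.7, 57.9 and 81.3 CPM in G3 1 to 4. The highest values were in G3 PGC1aOE 2 and 3, G3 PGC1aOE 1 lay beside the lowest, and the log2 fold change was 0.47 ± 0.28 (adjusted p = 0.847). In mitochondria the pair is Txn2 and Txnrd2. Txn2 (ENSMUSG00000005354) measured 114, 250 and 211 CPM in G3 PGC1aOE 1 to 3, against 121, 177, 161 and 207 CPM in G3 1 to 4, and G3 PGC1aOE held both the highest and the lowest value (log2 fold change 0.20 ± 0.31, adjusted p = 0.888). Txnrd2 (ENSMUSG00000075704) measured 21.7, 36.5 and 23.1 CPM in G3 PGC1aOE 1 to 3, against 29.9, 20.2, 28.9 and 29.8 CPM in G3 1 to 4. G3 PGC1aOE 2 was highest and G3 2 lowest, and the log2 fold change was −0.0032 ± 0.25 (95% interval −0.55 to 0.55). Txnip (ENSMUSG00000038393), which binds and inhibits thioredoxin and responds to glucose, measured 842, 322 and 324 CPM in G3 PGC1aOE 1 to 3, against 437, 759, 459 and 745 CPM in G3 1 to 4. G3 PGC1aOE 1 was the highest of the 7 libraries and G3 PGC1aOE 2 and 3 were the lowest. Its log2 fold change was −0.28 ± 0.40 (adjusted p = 0.886), and the difference in log2 CPM was 0.66 in the lower set and −1.21 in the upper set.

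Glutaredoxins use glutathione to reduce protein disulfides. Glrx (ENSMUSG00000021591), the cytosolic glutaredoxin, measured 22, 26.4 and 22.7 CPM in G3 PGC1aOE 1 to 3, against 14.1, 15.5, 21.5 and 20.1 CPM in G3 1 to 4. The 3 G3 PGC1aOE values lay above all 4 G3 values, although G3 PGC1aOE 1 exceeded G3 3 by little, and the log2 fold change of 0.41 ± 0.22 did not pass (95% interval −0.068 to 0.89, edgeR adjusted p = 0.847). Macrophage markers summed to 438, 471 and 407 CPM in G3 PGC1aOE 1 to 3, against 447, 556, 248 and 229 CPM in G3 1 to 4, 9 of 10 had a positive log2 fold change, and none was at 0 in all libraries. Their part in Glrx was not tested. The mitochondrial Glrx2 and Glrx5 and the cytosolic Glrx3, which serve thiol repair and iron-sulfur protein assembly, had log2 fold changes of 0.13, 0.18 and 0.13 and did not pass. Glrx5 was the most abundant of the 4 at 86.4 FPKM, and Glrx the least at 15 FPKM.

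Glutathione itself is made in a pair of steps. Gclc, the catalytic subunit of the first, measured 15.8, 11.4 and 14.1 CPM in G3 PGC1aOE 1 to 3, against 15.1, 20.7, 10.6 and 12.3 CPM in G3 1 to 4, and the modifier subunit Gclm (ENSMUSG00000028124) measured 27.2, 19.4 and 20.6 CPM in G3 PGC1aOE 1 to 3, against 31.7, 32.8, 19.9 and 23.4 CPM in G3 1 to 4. Both overlapped between groups, with log2 fold changes of −0.091 ± 0.26 and −0.27 ± 0.24 (edgeR adjusted p = 0.944 and 0.847). Gss, which completes the molecule, and Gsr, which recharges it, had log2 fold changes of 0.0013 and −0.047. Of the glutathione transferases, which attach glutathione to electrophiles, the membrane-bound Mgst3 and the mu-class Gstm1 were the most abundant, at 213 and 211 FPKM. Mgst3 (ENSMUSG00000026688) measured 208, 353 and 245 CPM in G3 PGC1aOE 1 to 3, against 195, 219, 205 and 219 CPM in G3 1 to 4. The 4 G3 libraries lay close together, G3 PGC1aOE 2 and 3 exceeded them and G3 PGC1aOE 1 fell among them, with a log2 fold change of 0.36 ± 0.25 (adjusted p = 0.847). Gstm2, Gstm5, Gsta4, Gstp1 and Gstk1, further transferases of which Gstk1 is mitochondrial and peroxisomal, had log2 fold changes between −0.12 for Gstm2 and 0.37 for Gstm5. Mgst1, a membrane-bound form, ranged from 20.5 CPM in G3 4 to 107 CPM in G3 1, and its log2 fold change of −0.51 ± 0.44 did not pass. The methionine sulfoxide reductases Msra and Msrb2, which repair oxidised methionine, had 0.20 and 0.38.

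The mRNA of Nrf2 itself, Nfe2l2 (ENSMUSG00000015839), measured 63.1, 46.8 and 79.4 CPM in G3 PGC1aOE 1 to 3, against 53.8, 59.6, 48.7 and 79.9 CPM in G3 1 to 4. The groups overlapped across their whole range, and the log2 fold change was 0.060 ± 0.26 (95% interval −0.50 to 0.62, edgeR adjusted p = 0.96). Keap1 (ENSMUSG00000003308), the adaptor that directs Nrf2 to degradation, measured 53.5, 53.2 and 45 CPM in G3 PGC1aOE 1 to 3, against 65.3, 55.6, 60.9 and 62.5 CPM in G3 1 to 4. All G3 PGC1aOE values lay below all G3 values, the means were 50.6 ± 4.83 CPM (SD, n = 3) in G3 PGC1aOE and 61.1 ± 4.06 CPM (SD, n = 4) in G3, and the log2 fold change of −0.27 ± 0.19 did not pass (95% interval −0.70 to 0.15, adjusted p = 0.847). Keap1 kept a negative value in each of the 21 alternatives, between −0.39 and −0.20. Because its groups did not overlap, the sign was largely fixed in those that leave libraries out.

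Of the 12 members that are textbook targets of Nrf2, 5 had a positive and 7 a negative log2 fold change, with a median of −0.053 beside 0.0076 over all tested genes. Averaged over these genes, levels were 5.25, 5.41 and 5.52 log2 CPM in G3 PGC1aOE 1 to 3, against 5.48, 5.62, 5.17 and 5.36 log2 CPM in G3 1 to 4, and the group means were −0.17 apart in the lower set of codes, 0.099 in the upper set and −0.014 over all 7 libraries. Nqo1 (ENSMUSG00000003849), a quinone reductase used widely as a readout of Nrf2, measured 56.8, 36.1 and 44.4 CPM in G3 PGC1aOE 1 to 3, against 78.9, 61.1, 35.7 and 55.1 CPM in G3 1 to 4. The lowest libraries of the groups, G3 PGC1aOE 2 and G3 3, were nearly equal, G3 1 was the highest, and the log2 fold change was −0.33 ± 0.28 (95% interval −0.96 to 0.29, adjusted p = 0.847). Srxn1, which restores overoxidised peroxiredoxins, varied little, with means of 19.7 ± 2.7 CPM (SD, n = 3) in G3 PGC1aOE and 18.3 ± 0.517 CPM (SD, n = 4) in G3. Hmox1 (ENSMUSG00000005413), the stress-inducible haem oxygenase, measured 9.32, 13.2 and 13 CPM in G3 PGC1aOE 1 to 3, against 18.8, 23.8, 4.75 and 6.84 CPM in G3 1 to 4. G3 1 and G3 2 were the highest and G3 3 and G3 4 the lowest of the 7 libraries, so the G3 PGC1aOE values lay between, with a log2 fold change of −0.19 ± 0.50 (adjusted p = 0.938). Hmox2 (ENSMUSG00000004070), the constitutive form, measured 31.1, 30.1 and 42.9 CPM in G3 PGC1aOE 1 to 3, against 29.8, 37.5, 36.1 and 37.7 CPM in G3 1 to 4, and the groups overlapped (log2 fold change −0.023 ± 0.21).

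Nrf2 acts through the antioxidant response element, whose core was searched for as TGACNNNGC on both strands in the 250 bases before the start of each RefSeq promoter (build GRCm38.p6, a later build than the mm9 of the counts, matched by symbol). Promoters were found for 40 of the 47 genes and for 8 of the 12 Nrf2 targets. These 40 genes have 54 promoters, of which 8, from 8 genes, held the core, or 14.8% beside 10.2% of all 32851 promoters. The 8 genes include 3 of the Nrf2 targets. The 3 target promoters are printed 5′ to 3′ because they belong to a gene with the smallest p (Txnrd1), a subunit of glutathione synthesis (Gclm) and a gene with a positive value (Prdx1). Capitals mark the core, which lies on the opposite strand in all 3, and in Gclm it overlaps a match to the metal response element described below. The regions are chr10:82858956-82859205, chr3:122245307-122245556 and chr4:116685349-116685598, all on the plus strand, and that of Txnrd1 is 1 of several starts.
Txnrd1: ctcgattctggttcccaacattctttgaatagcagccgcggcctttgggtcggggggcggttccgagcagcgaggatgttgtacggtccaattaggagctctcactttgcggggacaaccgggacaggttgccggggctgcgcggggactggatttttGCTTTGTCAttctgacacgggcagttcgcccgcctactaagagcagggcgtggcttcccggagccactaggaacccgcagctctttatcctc
Gclm: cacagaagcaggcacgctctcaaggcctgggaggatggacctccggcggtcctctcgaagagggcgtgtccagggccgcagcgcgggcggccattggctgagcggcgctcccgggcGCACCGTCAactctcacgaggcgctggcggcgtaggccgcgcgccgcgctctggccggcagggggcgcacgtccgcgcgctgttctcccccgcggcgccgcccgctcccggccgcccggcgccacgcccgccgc
Prdx1: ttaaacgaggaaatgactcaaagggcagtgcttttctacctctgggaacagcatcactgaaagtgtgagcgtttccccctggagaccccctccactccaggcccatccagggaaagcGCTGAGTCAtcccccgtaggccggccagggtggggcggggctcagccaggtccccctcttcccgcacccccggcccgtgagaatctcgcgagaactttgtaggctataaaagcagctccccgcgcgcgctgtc
The 3 genes with a match had log2 fold changes of −0.51 for Txnrd1, −0.27 for Gclm and 0.46 for Prdx1, on both sides of 0. A match is a description of the letters and not a binding site shown here.

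Metallothioneins bind zinc and copper and are induced by metals, glucocorticoids and oxidants. Mt1 (ENSMUSG00000031765) measured 250.1, 599 and 260 CPM in G3 PGC1aOE 1 to 3, against 288, 597, 169.6 and 206 CPM in G3 1 to 4. G3 PGC1aOE 2 and G3 2 were far above the rest, at nearly the same level, and the log2 fold change was 0.23 ± 0.47 (95% interval −0.81 to 1.28, edgeR adjusted p = 0.923). Mt2 (ENSMUSG00000031762) measured 97.3, 71.9 and 44.2 CPM in G3 PGC1aOE 1 to 3, against 130.1, 137, 14.7 and 17.3 CPM in G3 1 to 4. The 4 G3 libraries spanned 9.31-fold, against 2.2-fold in G3 PGC1aOE, with G3 1 and G3 2 highest and G3 3 and G3 4 lowest. Its log2 fold change of −0.073 ± 0.82 had the widest interval of the set (95% interval −1.98 to 1.84, adjusted p = 0.985), and a change of several-fold in either direction cannot be detected at such a spread. Macrophage markers and oxidant source genes were also lower in G3 3 and G3 4 than in the other 5 libraries. The mean of 10 macrophage markers was 4.75, 4.61 and 4.59 log2 CPM in G3 PGC1aOE 1 to 3, against 4.37, 4.66, 3.88 and 3.67 log2 CPM in G3 1 to 4, and that of 10 oxidant source genes was 3.84, 3.60 and 3.58 log2 CPM in G3 PGC1aOE 1 to 3, against 3.96, 3.78, 2.99 and 2.90 log2 CPM in G3 1 to 4. Their part in Gpx3, Mt2 and Hmox1 was not tested.

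The G3 libraries high in Gpx3, Mt2 and Hmox1 are those with the letter C in their sample code, a letter that all G3 PGC1aOE libraries carry too. Because this pair was seen to be high in these genes first, the values against it are a description. Gpx3 averaged 334 CPM in G3 PGC1aOE and 658 CPM in G3 1 and G3 2 (log2 fold change −0.96 ± 0.41), while G3 3 and G3 4 averaged 159 CPM. Hmox1 averaged 11.9 CPM in G3 PGC1aOE, against 21.3 CPM in G3 1 and G3 2 and 5.8 CPM in G3 3 and G3 4, and the log2 fold change against the first pair was −0.83 ± 0.30. For Mt2 it was −0.89 ± 0.37. None of the 47 genes passed against that pair (edgeR, lowest adjusted p = 0.971, called 0% of 12884 tested genes, 522 of them at an unadjusted p under 0.05). At that unadjusted p stood 6 of the 47 genes, or 12.8%, beside 4.05% of all tested genes. They include Gpx3, Hmox1 and Mt2, in which the pair was first seen to be high, so the share is a description. The rest were Mgst1 (log2 fold change −0.94), Glrx (0.69) and Msrb2 (0.90). With 2 G3 libraries of each kind, what goes with the letter cannot be told apart from the difference between single mice.

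Metal induction of these genes acts through metal response elements, searched for as TGCACNC or TGCGCNC on both strands in the same windows. Of all promoters 21.4% held a match, as did 14 of the 54 member promoters, or 25.9%, from 12 genes. Mt2 held 3, the last on the opposite strand, and Mt1 held 1, and these are shown with the matches in capitals. The counts hold only for these windows before the start used and describe letters, not binding sites shown here. Their part in the spread of either gene was not tested. The regions lie at chr8:94172368-94172617 for Mt2 and chr8:94178839-94179088 for Mt1 in GRCm38.p6, both on the plus strand.
Mt2: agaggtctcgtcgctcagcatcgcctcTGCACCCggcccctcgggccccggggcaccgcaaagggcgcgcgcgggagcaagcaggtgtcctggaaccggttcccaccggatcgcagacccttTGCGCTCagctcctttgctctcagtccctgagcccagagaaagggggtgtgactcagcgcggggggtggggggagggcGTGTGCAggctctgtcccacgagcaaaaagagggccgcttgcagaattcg
Mt1: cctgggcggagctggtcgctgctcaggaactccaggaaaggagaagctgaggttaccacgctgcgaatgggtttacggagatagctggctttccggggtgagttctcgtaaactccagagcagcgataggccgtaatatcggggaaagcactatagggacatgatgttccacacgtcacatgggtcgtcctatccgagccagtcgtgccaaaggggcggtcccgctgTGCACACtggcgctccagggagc
No match overlapped the antioxidant core in these windows, although the Mt2 window also holds that core. Reads from the similar coding parts of Mt1 and Mt2 and of the Gstm genes may have been split or lost by the authors' counting. The same holds for genes with processed pseudogenes such as Txn1 and Prdx1. How the authors counted is not described.

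**Figure D4:**
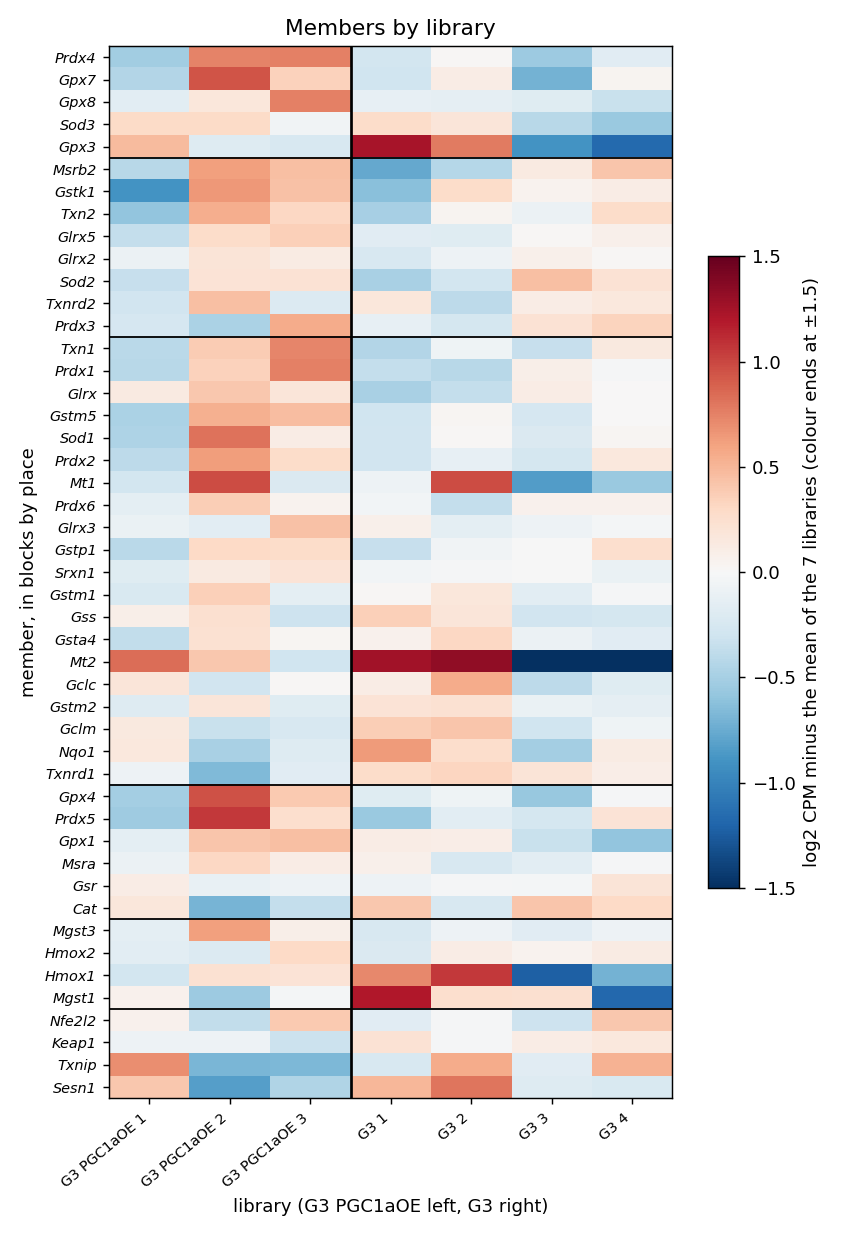
Log2 CPM of each of the 47 genes minus its mean over the 7 libraries (colour, red above and blue below the mean, ends at ±1.5), with the 3 G3 PGC1aOE libraries left of the line, the 4 G3 libraries right of it, and genes in blocks by place. Mt2, Gpx3 and Hmox1 are red in G3 1 and 2 and blue in G3 3 and 4, and many cytosolic and mitochondrial genes are red in G3 PGC1aOE 2 and blue in G3 PGC1aOE 1.

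By place, the 8 mitochondrial members had a median log2 fold change of 0.16, with 6 positive and 2 negative values, and the 20 cytosolic members one of 0.11, with 13 positive and 7 negative. Both rest on G3 PGC1aOE 2, without which they were 0.020 and −0.022. On log2 FPKM with a pseudocount of 1 the cytosolic median was −0.013, but the median over all tested genes was lower still, at −0.081. With the length trend removed the cytosolic median was −0.069 and the mitochondrial one −0.020, against −0.0070 over all tested genes. The mean of the mitochondrial list was 6.00, 6.71 and 6.69 log2 CPM in G3 PGC1aOE 1 to 3, against 6.06, 6.24, 6.53 and 6.61 log2 CPM in G3 1 to 4. G3 PGC1aOE 1 was the lowest and G3 PGC1aOE 2 the highest of the 7, and the group means were −0.28 apart in the lower set of codes, 0.095 in the upper set and 0.11 over all 7 libraries. For the cytosolic list the mean was 5.96, 6.30 and 6.17 log2 CPM in G3 PGC1aOE 1 to 3, against 6.12, 6.25, 5.82 and 5.97 log2 CPM in G3 1 to 4, with overlap between groups, and the group means were −0.11 apart in the lower set of codes, 0.27 in the upper set and 0.10 over all 7 libraries. The 6 peroxisomal or several-compartment members had a median of 0.31, the 4 membrane members −0.11 and the 4 regulators −0.27. Among the regulators Sesn1, a p53-responsive sestrin, had −0.48 ± 0.36 (adjusted p = 0.847), from 139.6, 59.1 and 76.9 CPM in G3 PGC1aOE 1 to 3, against 148, 183, 91.5 and 89.4 CPM in G3 1 to 4. The lowest values were in G3 PGC1aOE 2 and 3, and only G3 1 and G3 2 exceeded G3 PGC1aOE 1.

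Ratios within a library do not depend on its scaling, but its trend on gene length need not cancel where the genes of a pair differ in length. Txnrd2 and Txnrd1 are 967 and 3417 bp long, and Sod2 and Sod1 3824 and 646 bp. The part of that trend in the ratios was not tested. In all, 7 pairs were compared by an exact 2-sided permutation test over the 35 splits of 4 and 3 libraries. Its smallest possible p is 0.0286. None of the 7 pairs passed, with p-values adjusted over the 7 between 0.533 and 0.8. The FPKM ratio of the mitochondrial to the cytosolic peroxiredoxin, Prdx3 to Prdx1, was 0.755, 0.382 and 0.59 in G3 PGC1aOE 1 to 3, against 0.79, 0.752, 0.735 and 0.862 in G3 1 to 4. G3 PGC1aOE 2 and 3 were the lowest and G3 PGC1aOE 1 lay within the G3 values, a difference of −0.50 in log2 ratio (exact permutation p = 0.171, adjusted 0.533). Txnrd2 to Txnrd1 was 1.57, 3.95 and 1.77 in G3 PGC1aOE 1 to 3, against 1.69, 1.1, 1.72 and 1.9 in G3 1 to 4. G3 PGC1aOE 2 stood far above the other 6 libraries, and the difference of 0.50 did not pass (exact permutation p = 0.457), at 0.088 without that library. The log2 ratio of Sod2 to Sod1 differed by −0.22, that of Txn2 to Txn1 by −0.26, that of Gclc to Gclm by 0.20, that of Hmox1 to Hmox2 by 0.13 and that of Mt2 to Mt1 by 0.27, with exact permutation p-values between 0.171 and 0.8.

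Length went with the deviation of several libraries. Across the 47 genes the rank correlation between gene length and the deviation of log2 CPM from the mean was −0.59 in G3 PGC1aOE 2, −0.27 in G3 PGC1aOE 3 and 0.55 in G3 PGC1aOE 1, against 0.23, −0.087, 0.2 and 0.19 in G3 1 to 4, given as a description. The 20 members under 1000 bp had a median deviation of −0.39, 0.43 and 0.29 in G3 PGC1aOE 1 to 3, against −0.18, 0.072, −0.13 and −0.016 in G3 1 to 4. The 27 longer members had −0.076, −0.079 and 0.088 in G3 PGC1aOE 1 to 3, against −0.037, −0.019, −0.17 and 0.066 in G3 1 to 4. In all, 19 of the 47 members were highest in G3 PGC1aOE 2, and the share of all tested genes highest there was not counted. The 19 include Sod1, Gpx4, Msrb2 and Gstk1, each under 1000 bp. They also include Prdx5 and Mgst3, which at 1086 and 1097 bp belong to the longer members. With each library's length trend removed, the median log2 fold change of the 47 genes was −0.027, and Sod1 had −0.077.

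**Figure D5:**
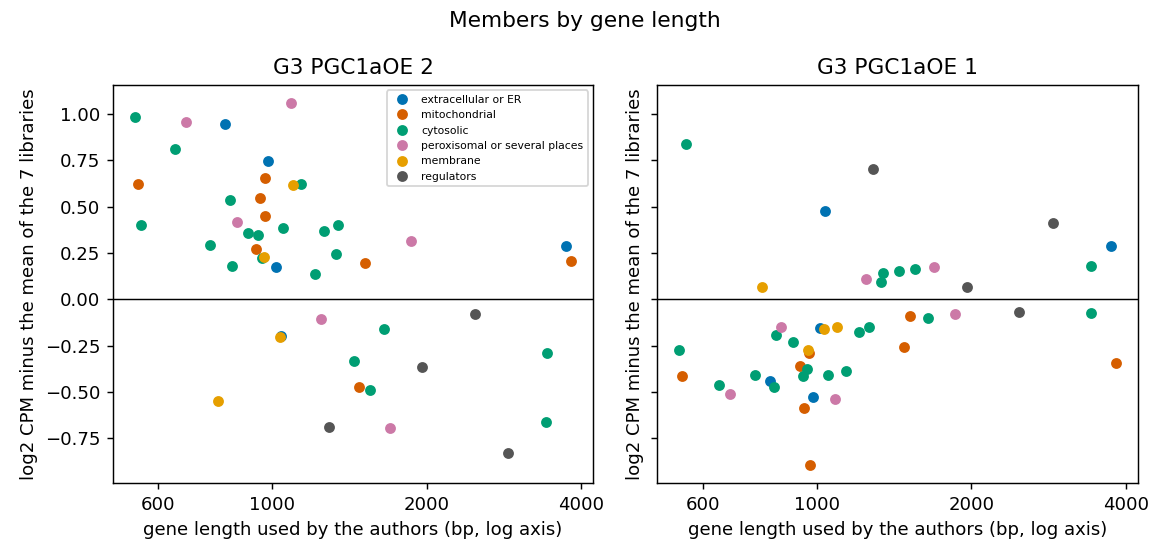
Log2 CPM minus the mean of the 7 libraries (y axis) against the gene length used by the authors (x axis, bp, log scale) for the 47 genes in G3 PGC1aOE 2 and G3 PGC1aOE 1, coloured by place. Short genes lie mostly above 0 in the first library and mostly below 0 in the second, with rank correlations of −0.59 and 0.55.

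Other genes of the same pathways were taken from lists kept separate from the 47, and none of them passed. In NADPH supply, 6 of 12 genes had a positive and 6 a negative log2 fold change, with a median of −0.14. Nnt, the mitochondrial transhydrogenase that makes NADPH and is known for a deletion within the gene in C57BL/6J mice, measured 376, 141 and 269 CPM in G3 PGC1aOE 1 to 3, against 708, 582, 444 and 428 CPM in G3 1 to 4. All G3 PGC1aOE libraries lay below all G3 libraries, with a log2 fold change of −1.04 ± 0.36 (edgeR unadjusted p = 0.0151, adjusted p = 0.847), and counts per gene cannot show the deletion. Idh2, the mitochondrial isocitrate dehydrogenase that yields NADPH, measured 1641, 1617 and 1543 CPM in G3 PGC1aOE 1 to 3, against 1736, 2078, 1720 and 2309 CPM in G3 1 to 4. It was chosen after its values were seen, its groups did not overlap either, and the log2 fold change was −0.29 ± 0.26 (adjusted p = 0.847). Lower without overlap were 2 of the 12 genes, beside 2.39% of all tested genes.

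Among 10 oxidant sources, 6 had a positive and 4 a negative value. Groups did not overlap for 3 of the 10, all higher, beside 2.19% of all tested genes. Among them were Ncf4, a gene of the phagocyte NADPH oxidase, and the small GTPase gene Rac2. Ncf4 measured 3.65, 4.22 and 3.39 CPM in G3 PGC1aOE 1 to 3, against 2.28, 2.22, 1.52 and 1.5 CPM in G3 1 to 4, a log2 fold change of 0.99 ± 0.31, and Rac2 had 0.59 (edgeR adjusted p = 0.847 for both). Of 21 tested other Nrf2 targets and partners, 12 had a positive and 9 a negative value, with a median of 0.13. Tkt, a transketolase of the pentose phosphate pathway, had 0.59 ± 0.25 and the ubiquitin ligase subunit gene Rbx1 0.53, and neither passed. The list's only gene whose groups did not overlap was lower, the transporter gene Abcc4 at −0.32 ± 0.21, and it was chosen after its values were seen. Over all tested genes 2.39% were lower without overlap. Of 20 tested other glutathione genes 13 had a positive and 7 a negative value, with a median of 0.061, and the theta-class transferase genes Gstt1 and Gstt3 had 0.95 and 0.59.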

How the data were processed

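Left ventricular RNA of 7 mice was sequenced, and samples were grouped by their genotype label. The authors deposited raw whole-number counts for each Ensembl gene. They also deposited FPKM, which equalled the count over its column's sum and over 1 length per gene, and so added no separate measurement. The submitters' processing notes name CASAVA, Bowtie 0.12.2 and the build mm9. How reads were counted, on which annotation and with which strand setting is not stated there. A name table matched 21748 of 22027 identifiers.

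Counts were filtered (filterByExpr, 12674 genes kept), scaled by TMM and tested with edgeR 4.0.16 in R 4.3.3 (quasi-likelihood, 2-sided, robust, group as the only term, adjusted over all tested genes at 0.05). CPM uses TMM-scaled totals, and log2 CPM a prior count of 2. Totals were 10106705 to 16056740 counts per library, and the biological coefficient of variation was 31.2%. No pair of the 21 pairs of libraries agreed within sampling noise. The fit was also tested on simulated data. The 47 genes and all lists were chosen with earlier results of these data known, so no test was made on a list. Values in every library are given for regulators, the members of smallest p in each direction, the most abundant of each place, ratio pairs, and members whose groups did not overlap. Alternatives included DESeq2 1.42.0, limma 3.58.1 and each library left out.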

Additional observations from a re-analysis of the deposited data

Results flagged for a closer look

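In 77 sets of 4 G3 values, those of the members, the ratios and the list means, 2 held a library far from the other 3 by Dixon's gap test, where chance flags about 1 in 20. The mitochondrial thioredoxin reductase gene Txnrd2 stood at 20.2 CPM in G3 2, against 28.9 to 29.9 CPM in the other G3 libraries. The mean of the epicardial and mesothelial markers stood at 2.30 log2 CPM in G3 4, against 0.61 to 0.85 in the other G3 libraries, and it touches no result above.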

How the results depend on the processing

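All 21 alternatives called 0 of the 47 genes. Over all tested genes, DESeq2 called 1 (Col3a1) and the fit with the replicate block called 6, and 0 were called in the other 19. At an unadjusted p under 0.05, edgeR had 1 of the 47 genes and 548 of all genes, DESeq2 1 and 706, and limma voom 4 and 1116. Groups shared the replicate numbers 1 to 3, but same-numbered libraries did not deviate together in each pair (correlations of 0.46, 0.12 and −0.086), so the block has no base in the design. Of the 28 named members 15 kept their direction in every alternative. The median log2 fold change of the 47 genes was −0.027 with the length trend removed, and that of the mitochondrial members −0.15 when adjusted for the code number, each a move of more than the SD of the list mean in G3. The cause was not tested. Adjusted for the code number the direction turned for Gclc (0.041), Gpx3 (0.37), Hmox1 (0.040), Mt2 (0.85), Nfe2l2 (−0.041), Sod2 (−0.16) and Txn2 (−0.15). With the length trend removed the direction turned for Gclc (0.0018), Mt1 (−0.26), Sod1 (−0.077) and Txn2 (−0.013). With limma voom the direction turned for Hmox1 (0.11), Hmox2 (0.095), Mt2 (0.26) and Prdx3 (0.19). With upper quartile scaling the direction turned for Hmox2 (0.016) and Txnrd2 (0.041). Against G3 1 and G3 2 alone, the G3 libraries with a C in the code, the direction turned for Hmox2 (0.061), Mt1 (−0.24), Prdx3 (0.22), Sod3 (−0.025) and Txnrd2 (0.13). On log2 FPKM with a pseudocount of 1 the direction turned for Mt2 (0.42), Nfe2l2 (−0.061) and Sod2 (−0.065). On log2 FPKM with a pseudocount of 0.1 the direction turned for Mt2 (0.43), Nfe2l2 (−0.063) and Sod2 (−0.065). With the replicate block the direction turned for Mt2 (0.031), Prdx3 (0.0028) and Txnrd2 (0.021). Adjusted for the digit in the code the direction turned for Sod2 (−0.020). With a stricter filter (CPM of 1) the direction turned for Txnrd2 (0.0057). Without mitochondrially encoded genes the direction turned for Txnrd2 (0.012). With each library left out in turn, the log2 fold change or log2 ratio moved by more than 1.5 times over these ranges: median of the members 0.0085 to 0.21, median of mitochondrial members 0.020 to 0.29, median of cytosolic members −0.022 to 0.21, median of extracellular and endoplasmic reticulum members 0.21 to 0.69, median of Nrf2 target members −0.098 to 0.087, Cat −0.77 to −0.31, Gclc −0.23 to 0.12, Gclm −0.44 to −0.16, Gpx3 −0.57 to 0.20, Gpx4 0.20 to 0.89, Gpx7 0.19 to 0.86, Gpx8 0.21 to 0.69, Hmox1 −0.49 to 0.23, Hmox2 −0.21 to 0.069, Mgst3 0.11 to 0.51, Mt1 −0.30 to 0.74, Mt2 −0.44 to 0.40, Nfe2l2 −0.14 to 0.23, Nqo1 −0.52 to −0.15, Prdx1 0.17 to 0.72, Prdx3 −0.42 to 0.15, Sesn1 −0.92 to −0.24, Sod1 −0.039 to 0.61, Sod2 −0.11 to 0.18, Sod3 0.14 to 0.41, Txn1 0.20 to 0.72, Txn2 −0.033 to 0.47, Txnip −0.90 to −0.043, Txnrd2 −0.28 to 0.13, the ratio Sod2/Sod1 −0.34 to 0.023, the ratio Txn2/Txn1 −0.41 to −0.12, the ratio Txnrd2/Txnrd1 0.088 to 0.76, the ratio Prdx3/Prdx1 −0.72 to −0.23, the ratio Hmox1/Hmox2 −0.29 to 0.47, the ratio Gclc/Gclm 0.12 to 0.27 and the ratio Mt2/Mt1 −0.22 to 0.75. On log2 FPKM with a pseudocount of 0.1 the median over all genes was −0.10, against 0.0076 in edgeR, and that of the 47 genes −0.0091. Every member had at least 47 counts in each library, and the widest 95% intervals were those of Mt2, Gpx3, Hmox1 and Mt1.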

Other observations

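Selenium-dependent genes outside the set were described too. Of 19 genes of selenoprotein synthesis and other selenoproteins, 11 had a positive and 8 a negative log2 fold change, with a median of 0.16 beside 0.0076 over all tested genes. Groups did not overlap for 1 higher and 2 lower genes, beside 2.19% and 2.39% of all tested genes. The higher one was Selenon (0.39), the lower ones were Selenoo (−0.57) and Sephs2 (−0.66), and none passed. Selenop, which carries selenium in plasma, measured 323, 292 and 413 CPM in G3 PGC1aOE 1 to 3, against 481, 382, 242 and 242 CPM in G3 1 to 4, with G3 1 highest and G3 3 and G3 4 lowest, and a log2 fold change of 0.024 ± 0.31 (edgeR adjusted p = 0.986). It was chosen after its values were seen. Of 16 other thioredoxin, sestrin and methionine sulfoxide genes 11 had a positive value, and groups did not overlap for 1 higher and 1 lower gene, beside 2.19% and 2.39% of all tested genes. The lower one, the sestrin gene Sesn3, had a log2 fold change of −0.63 ± 0.33 (edgeR adjusted p = 0.847) and was chosen after its values were seen. The higher one, Mt3, a metallothionein best known from brain, measured 5.2, 5.17 and 6.85 CPM in G3 PGC1aOE 1 to 3, against 2.92, 3.77, 2.33 and 2.93 CPM in G3 1 to 4. The log2 fold change of 0.94 ± 0.27 did not pass (edgeR unadjusted p = 0.00619, adjusted p = 0.847).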
